A study of Mus musculus with 19 samples.

Results

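The miR-29 family in mouse liver comprised the 3 guide strands mmu-miR-29a, mmu-miR-29b and mmu-miR-29c (miR-29a, miR-29b and miR-29c), chosen by their names in the scanner files from 696 miRNAs on the array. All 3 were among the 208 miRNAs tested and among the 137 detected on every array. Liver RNA of 19 mice had been hybridized, 1 mouse per one-colour Agilent miRNA array. Male MutaMouse animals (transgenic strain 40.6, which carries a bacterial lacZ reporter) were 10 weeks old and were gavaged daily for 28 days, with 3 days between the last dose and removal of the liver. Controls received olive oil alone (5 arrays), and the other groups received dibenz[a,h]anthracene (DB[a,h]A), a polycyclic aromatic hydrocarbon, in olive oil at 6.25 mg/kg/day (low dose, 5 arrays), 12.5 mg/kg/day (middle dose, 4 arrays) or 25 mg/kg/day (high dose, 5 arrays). All groups share the transgene, the sex and the oil. A piece of whole liver was profiled, so fewer cells of a type and less miRNA per cell cannot be told apart.

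miRNAs of the miR-29 family repress mRNAs of extracellular matrix proteins, among them collagens, and of DNA methyltransferases. In liver the family is known from fibrosis, in which its level falls in hepatic stellate cells. A miRNA recognizes its targets mainly through its seed, bases 2 to 8 from the 5′ end.

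The mature strands are shown because the array has to tell 3 nearly identical RNAs apart. They are taken from RefSeq (GRCm38.p6), 5′ to 3′, with the seed in capitals.
miR-29a: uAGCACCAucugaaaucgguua
miR-29b: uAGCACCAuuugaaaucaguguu
miR-29c: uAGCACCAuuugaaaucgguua
All 3 share 1 seed, and no other mature miRNA among 1679 names in that table has it. Counted from the 5′ end with the miR-29c base first, miR-29a differs from miR-29c only by U10C. Over their shared length miR-29b differs from miR-29c by G18A, U21G and A22U, and it is 1 base longer (23 against 22 bases). The genes form 2 clusters. Mir29a (chr6:31062660-31062747, minus strand) lies 275 bases from Mir29b-1 (chr6:31063023-31063093, minus strand). Mir29b-2 (chr1:195037040-195037120, plus strand) lies 426 bases from Mir29c (chr1:195037547-195037634, plus strand). Both Mir29b genes yield the same mature strand, so the miR-29b signal does not say which cluster made it. The coordinates are those of the precursor hairpins in GRCm38.p6.

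The level of a miRNA is the log2 signal of its brightest probe set against a reference of that array, the 75th percentile of 220 probes detected on all arrays. The scale does not allow the level of one probe to be set against another's, so levels are compared between groups for 1 member at a time. The arrays lay on 3 slides, each with all 4 groups, and the slide is a term in the fits reported. The row of an array on its slide went largely with the dose: row 2 held 1 of 5 controls, 1 of 5 low dose, 3 of 4 middle dose and 5 of 5 high dose arrays. Overall array signal was lower at the higher doses. The 75th percentile had medians of 345 in controls, 335 at low dose, 191 at middle dose and 218 at high dose, and the number of detected miRNAs had medians of 204, 201, 168.5 and 171 in that order. As a check that the dose acted, miR-34a, a target of p53, rose by 1.52 ± 0.29, 3.11 ± 0.32 and 3.49 ± 0.30 (log2, SE) at low, middle and high dose (limma, adjusted p of 0.0165, 3.59e-05 and 4.88e-06).

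None of the 3 members passed the test (limma with the slide as a block, Benjamini-Hochberg adjusted p under 0.05 over 208 miRNAs) at any dose against control. Of all tested miRNAs 4.33%, 5.77% and 2.40% passed at low, middle and high dose, and 0% passed downward at each dose. At an unadjusted p under 0.05, 1 member stood out at each dose and each time it was a different one: miR-29c higher at low dose, miR-29b lower at middle dose and miR-29a lower at high dose. That rule takes in 13.5%, 25% and 25.5% of all tested miRNAs in either direction, and 0%, 3.37% and 5.77% downward. The arrays of all 9 member and dose combinations overlapped those of the controls, and groups did not overlap for 3.37%, 5.29% and 4.33% of all tested miRNAs at the 3 doses.

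mmu-miR-29a is made from the Mir29a and Mir29b-1 cluster. Its level was 2.39, 2.06, 2.28, 2.05 and 2.26 in the controls and 2.36, 2.16, 2.20, 2.23 and 2.19 at low dose. It was 2.27, 2.39, 2.05 and 2.06 at middle dose and 2.13, 2.12, 2.12, 2.01 and 1.98 at high dose. The high dose livers were all below the control mean and 2 of 5 were below every control, while the other two dose groups lay within the control range. The high dose group averaged 2.07 ± 0.07 (SD, n = 5) and the controls 2.21 ± 0.15 (SD, n = 5). The fitted difference was -0.17 ± 0.05 (log2, SE), a fold of 0.891 with a 95% interval of 0.822 to 0.965, with an unadjusted p of 0.00783 and an adjusted p of 0.100 in limma. This was the 16th smallest p of 208. Within slides the high dose minus control difference was -0.26, 0.00 and -0.21 on slides 1, 2 and 3. Slides 1 and 2 each held 2 high dose arrays and 1 control, and slide 3 held 1 high dose array and 3 controls. With the slide and the row together as blocks the high dose difference was -0.23 ± 0.08 (adjusted p of 0.451, limma), and in the only slide row that held both groups 1 high dose liver stood at 1.98 and 1 control at 2.26. The same difference was -0.08 with quantile normalization and -0.02 in the submitters' value table (adjusted p of 0.554 and 0.819, limma). At the lower doses the miR-29a difference from control was 0.02 ± 0.05 (low, adjusted p of 1) and -0.07 ± 0.06 (middle, adjusted p of 0.474, limma).

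mmu-miR-29b is the member with a gene in each cluster. Its level was 2.24, 2.03, 2.15, 1.89 and 2.11 in the controls and 2.29, 2.09, 2.15, 2.02 and 2.10 at low dose. It was 2.02, 2.16, 1.80 and 1.95 at middle dose and 2.19, 2.06, 2.05, 1.92 and 1.87 at high dose. The lowest of the 19 values was a middle dose liver, but 3 of 4 middle dose livers stayed inside the control range. The middle dose group averaged 1.98 ± 0.15 (SD, n = 4) and the controls 2.08 ± 0.13 (SD, n = 5). The fitted difference was -0.16 ± 0.06, a fold of 0.895 (95% interval 0.820 to 0.977), with an unadjusted p of 0.0171 and an adjusted p of 0.111 (limma). It was below 0 on each slide, at -0.15, -0.22 and -0.09, with 2, 1 and 1 middle dose arrays and 1, 1 and 3 controls. At high dose the difference was -0.11 ± 0.06 (adjusted p of 0.259), and at low dose it was 0.05 ± 0.05 (adjusted p of 0.889, limma).

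mmu-miR-29c is made from the Mir29b-2 and Mir29c cluster. Its level was 1.15, 0.94, 1.10, 0.99 and 1.01 in the controls and 1.29, 1.14, 1.17, 1.02 and 1.25 at low dose. It was 1.11, 1.20, 0.87 and 1.11 at middle dose and 1.12, 1.04, 1.11, 0.88 and 0.98 at high dose. At low dose 3 of 5 livers were above every control, and at high dose 4 of 5 were inside the control range. The low dose group averaged 1.17 ± 0.11 (SD, n = 5) and the controls 1.04 ± 0.08 (SD, n = 5). The fitted difference at low dose was 0.15 ± 0.06, a fold of 1.11 (95% interval 1.02 to 1.20), with an unadjusted p of 0.0207 and an adjusted p of 0.215 (limma). It was above 0 on each slide, at 0.14, 0.21 and 0.10, with 1, 2 and 2 low dose arrays and 1, 1 and 3 controls. At middle and high dose the miR-29c difference was 0.00 ± 0.06 and -0.02 ± 0.06 (adjusted p of 1 and 0.901, limma), and the 95% interval of its fold at high dose ran from 0.903 to 1.07.

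**Figure D1:**
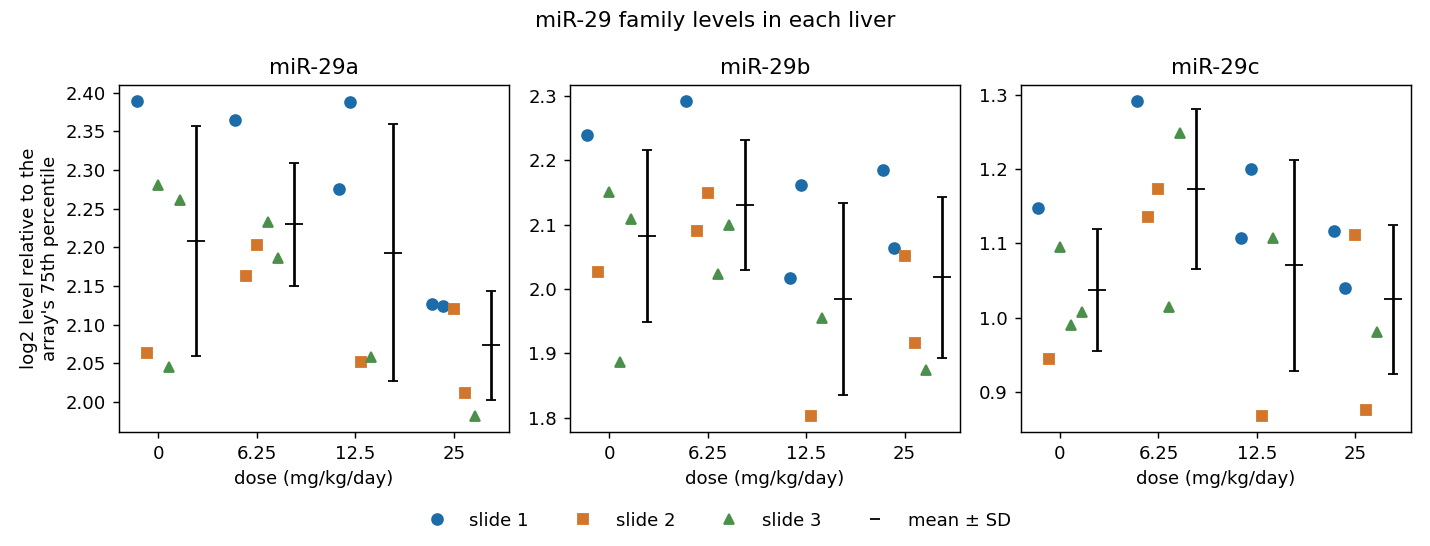
Log2 level of miR-29a, miR-29b and miR-29c in each of the 19 livers (vertical axes, in units of the array's 75th percentile, with a separate range for each member) against dose in mg/kg/day, with 1 point per array, marked by slide, and bars for mean ± SD. The miR-29a points at 25 mg/kg/day lie between 1.98 and 2.13, below the control mean of 2.21, and every dosed group overlaps the controls.

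Between doses the 3 members differed in the same direction when the high dose was set against the low dose. The differences were -0.19 ± 0.05 for miR-29a, -0.15 ± 0.05 for miR-29b and -0.17 ± 0.06 for miR-29c (limma, adjusted p of 0.232, 0.247 and 0.247). None passed, where 0.481% of all tested miRNAs did, and all 3 were at an unadjusted p under 0.05, where 10.1% of all tested miRNAs were lower by that rule. In the same order these differences were -0.051, -0.013 and -0.029 with labelling spike-ins, -0.016, -0.080 and -0.040 in the value table, and -0.72, -0.68 and -0.70 without scaling, and none passed. The low dose arrays are the same in each of these differences, and those of miR-29c include its high low dose values. Middle against low dose gave -0.09 ± 0.06, -0.21 ± 0.06 and -0.14 ± 0.06 (adjusted p of 0.499, 0.330 and 0.456, limma). The miR-29b difference was the second smallest p of 208 there, at an unadjusted p of 0.00337. Of all tested miRNAs 0.481% passed. At an unadjusted p under 0.05 miR-29b and miR-29c were lower, a rule that 3.85% of all tested miRNAs met downward and 7.69% in either direction. High against middle dose gave -0.10 ± 0.05, 0.05 ± 0.06 and -0.03 ± 0.06 (adjusted p of 0.757, 1 and 1, limma), where 0% of all tested miRNAs passed and 6.73% were at an unadjusted p under 0.05.

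**Figure D2:**
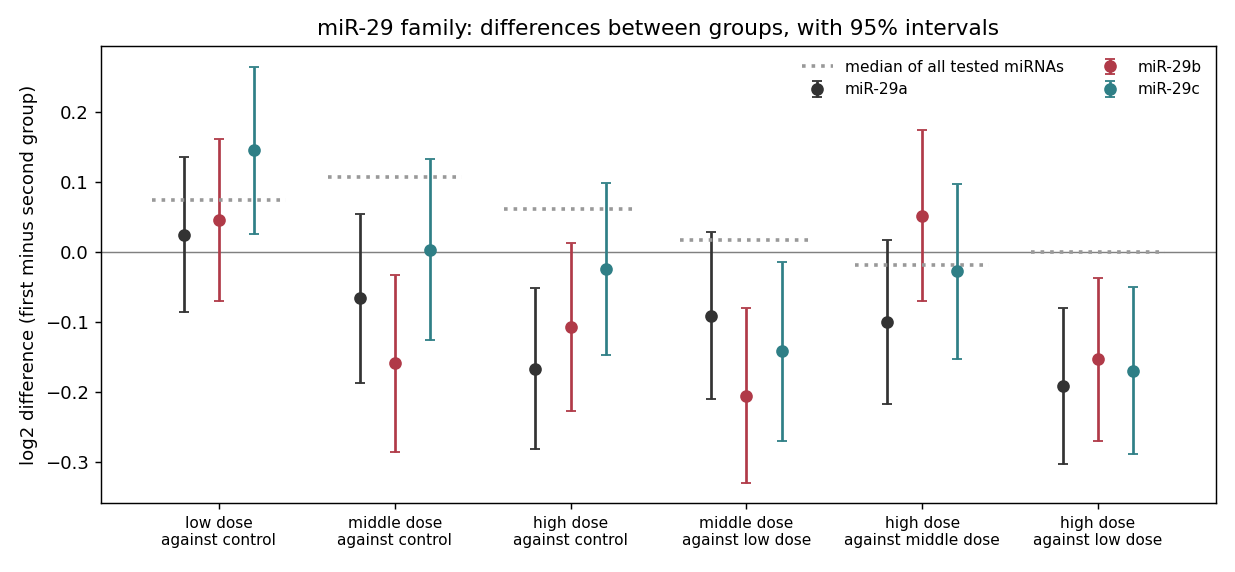
Log2 difference between groups (vertical axis, first minus second group) for miR-29a, miR-29b and miR-29c with 95% intervals, and the median over all tested miRNAs as dotted lines, for the 6 pairs of groups. The 3 points of high against low dose lie between -0.19 and -0.15, and those of high dose against control spread from -0.17 to -0.02.

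The linear trend over the dose was downward for each member. For miR-29a it was -0.00757 ± 0.00205 log2 units per mg/kg/day (SE), equal to -0.19 over 25 mg/kg/day, with an unadjusted p of 0.00209, the 4th smallest of 208, and an adjusted p of 0.0839 (limma). The trend of miR-29b was -0.00554 ± 0.00259 (adjusted p of 0.210) and that of miR-29c was -0.00305 ± 0.00268 (adjusted p of 0.537). None passed, where 0.962% of all tested miRNAs did. The miR-29a trend passed when any of 3 arrays was left out, with adjusted p of 0.0134 without control replicate 10, 0.0229 without control replicate 19 and 0.0310 without high dose replicate 15 (limma). In the other 16 fits with 1 array left out it did not pass, with adjusted p of 0.0581 to 0.146 (limma). With the log2 signal of the array as a covariate, an alternative chosen after seeing the data, it was -0.00753 ± 0.00275 and its adjusted p was 0.263, while the miR-29b trend was -0.00242 (adjusted p of 1). The miR-29a difference at high dose was then again -0.17, with an SE of 0.07 and an adjusted p of 0.402, while those of miR-29b were -0.12 ± 0.07 at middle dose (adjusted p of 0.449) and -0.06 ± 0.07 at high dose (adjusted p of 0.952). With the slide and the row as blocks the trends of miR-29a and miR-29b were -0.00864 and -0.00182 (adjusted p of 0.538 and 1, limma). The miR-29a trend was -0.00391 with quantile normalization and -0.00349 with labelling spike-ins (adjusted p of 0.414 and 0.969, limma). In the value table it was -0.000997 (adjusted p of 0.763, limma). Without scaling it was -0.0363 and passed, and with the 75th percentile over all probes it was -0.0188 and did not pass.

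The differences were also read against the median of all tested miRNAs, which moved with the processing. That median, as a difference from control over all 208, was 0.07, 0.11 and 0.06 at low, middle and high dose. miR-29a lay below that median by 0.05, 0.17 and 0.23 log2 units, and miR-29b by 0.03, 0.27 and 0.17. miR-29c was 0.07 above it at low dose and 0.10 and 0.09 below it at middle and high dose. At high dose miR-29a and miR-29b stayed below the median under each setting tried over all livers, by 0.04 to 0.52 and by 0.03 to 0.47. In some settings, such as quantile normalization, that median was 0, so there this only repeats the sign of the difference. With quantile normalization miR-29a and miR-29c lay at or just above it at middle dose, by 0.0032 and 0.011. In the value table miR-29b lay 0.15 above it at middle dose and miR-29c 0.027 above it at high dose.

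The spread within groups was narrow for the 3 members beside the median miRNA, but not for them alone. The SE at low dose was 0.045 for miR-10a and 0.051 for miR-24, against 0.052, 0.054 and 0.056 for miR-29a, miR-29b and miR-29c. The residual SD on the log2 scale was 0.082 for miR-29a, 0.086 for miR-29b and 0.088 for miR-29c, against a median of 0.145 over all 208 tested miRNAs and of 0.170 over the 125 never at the floor of -4.79. Over all 19 arrays each member spanned 0.41 to 0.49 log2 units. Slide 1 carried the highest mean of each member (2.28, 2.16 and 1.15 for miR-29a, miR-29b and miR-29c), against 2.10, 2.01 and 1.02 on slide 2 and 2.15, 2.01 and 1.06 on slide 3.

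Each member had 2 probes of 10 spots each. The dimmer probe gave high dose differences of -0.14 for miR-29a, -0.11 for miR-29b and -0.02 for miR-29c, close to the brighter one's -0.17, -0.11 and -0.02. Across the 19 arrays the probes of miR-29c followed each other at r = 0.993 and those of miR-29a at r = 0.921, but those of miR-29b at r = -0.04. After each slide was centred the miR-29b probes gave r = 0.680, with 0.633, 0.837 and 0.780 within slides 1, 2 and 3. The brighter miR-29b probe was 13.2 times the dimmer one on average on slide 1, against 8.98 times on slide 2 and 8.48 times on slide 3. On slide 2 the array of high dose replicate 16 had a ratio of 12.4, inside the slide 1 range of 12.3 to 14.2, and the other 5 arrays averaged 8.42. The same ratio was 3.12, 3.04 and 2.95 for miR-29a and 1.24, 1.23 and 1.23 for miR-29c. So the probes of miR-29b followed each other less well between slides than within them. The signal of the dimmer one was 42.4 to 244 and that of the brighter one 525 to 2117. Arrays share scaling and slide, so these correlations across arrays are descriptions.

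**Figure D3:**
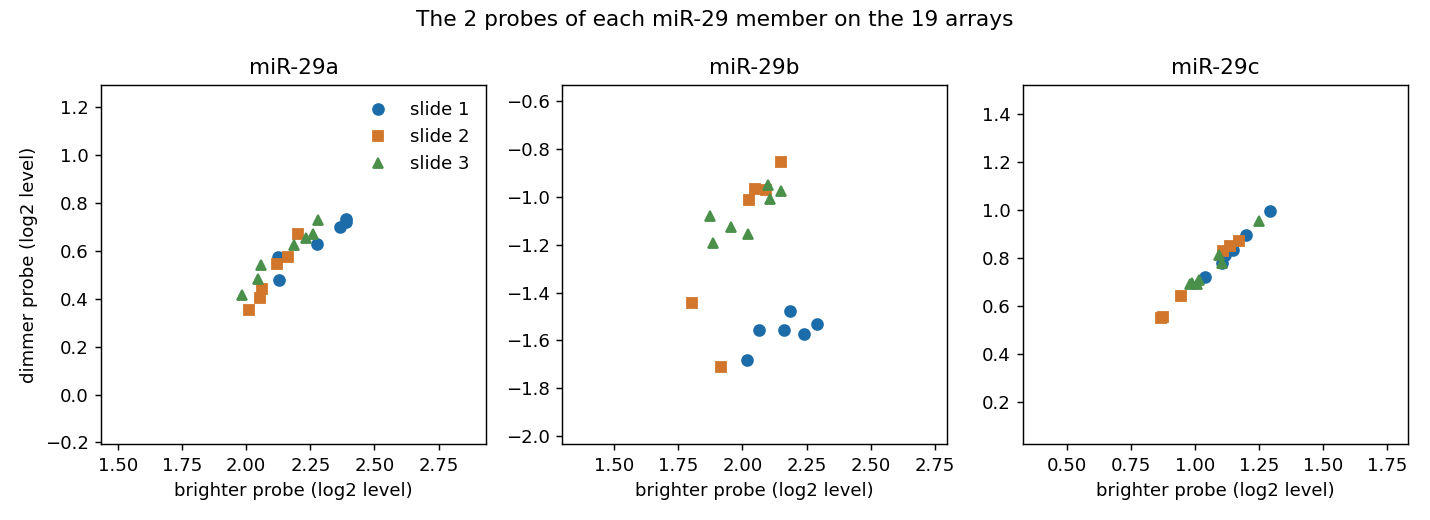
Log2 level of the dimmer probe (vertical axes) against the brighter probe (horizontal axes) of each member, with 1 point per array marked by slide and axes of equal span. The miR-29a and miR-29c points follow 1 line, while the 6 slide 1 points of miR-29b, with a mean ratio of 13.2, lie below most of the others together with 1 slide 2 point, high dose replicate 16, at 12.4.

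The members varied together between livers, but some miRNAs outside the family were as close or closer. With each slide centred, the levels of miR-29b and miR-29c correlated at r = 0.74 over 19 arrays, those of miR-29b and miR-29a at r = 0.73 and those of miR-29a and miR-29c at r = 0.56. Spearman's rho was 0.72, 0.71 and 0.53. Without the 2 arrays farthest from the median r was 0.70, 0.82 and 0.48, and the median over 7750 pairs of miRNAs never at the floor was 0.226. Outside the family, miR-203 followed miR-29a at r = 0.697, above the 0.56 of miR-29c. miR-101a followed miR-29b at 0.874, above both other members. All values share the array scaling and contain the dose differences. Whether each probe binds only its own member was not tested.

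The tested miRNAs outside the family most like each member by Pearson's r on slide-centred levels over 19 arrays were as follows. For miR-29a they were miR-15a (0.754), miR-26a (0.745), miR-30b (0.714), let-7g (0.710) and miR-203 (0.697). For miR-29b they were miR-101a (0.874), miR-1839-5p (0.747), miR-101b (0.711), miR-30b (0.676) and let-7g (0.653). For miR-29c they were miR-1839-5p (0.762), miR-26b (0.750), miR-126-3p (0.702), miR-361 (0.696) and miR-101a (0.670). miR-101a, the nearest of all, stood at -0.27 and -0.22 from control at middle and high dose (log2), with adjusted p of 0.0811 and 0.103 (limma).

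The passenger strands, the arms usually discarded from the hairpin, were near background. miR-29a* was detected on 0 of 19 arrays and miR-29b-1* on 10, with 18 of its 19 values at the floor. miR-29c* was detected on all 19 arrays at signals of 6.42 to 16.5 and averaged -4.56, -4.38 and -4.54 at low, middle and high dose and -4.72 in controls. The raw signal of miR-29c* averaged 12.6, 10.4 and 8.36 at low, middle and high dose and 13.0 in controls, so raw and scaled values run in opposite directions, and no direction is given for it.

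The list of matrix and fibrosis miRNAs held 20 names, of which 18 were tested, and it was put together with earlier results of these data known. At low and high dose 0 of 18 passed in either direction, and at middle dose 2 of 18 rose and 0 fell, where 4.33%, 5.77% and 2.40% of all tested miRNAs passed at low, middle and high dose. The 2 were miR-27a (0.38, adjusted p of 0.0403) and miR-27b (0.28, adjusted p of 0.0339, limma), which share a seed and restrain adipocyte differentiation. The medians of the list were 0.14, 0.18 and 0.03 at low, middle and high dose, beside 0.07, 0.11 and 0.06 over all tested miRNAs. Its 4 brightest members were miR-122, the most abundant miRNA of hepatocytes, miR-21, miR-192 and miR-30a, and their high dose differences were 0.11, -0.01, 0.05 and -0.28 (adjusted p of 0.647, 1, 0.795 and 0.0920, limma).

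Cell type markers were read beside the family, in lists too short for a count of 0 to differ from the shares of all tested miRNAs that passed (4.33%, 5.77% and 2.40%). Of 5 hepatocyte markers 0 passed at any dose, with medians of 0.04, -0.06 and -0.08 at low, middle and high dose. Of 4 tested markers of stellate cells, fibroblasts and smooth muscle 0 passed, with medians of 0.15, 0.34 and -0.04. Of that list miR-145 was detected on 0 arrays and miR-143 on 19. The miR-143 difference was 0.13 ± 0.41, 0.83 ± 0.44 and 0.10 ± 0.42 (SE) at low, middle and high dose. The summed level of that list was -0.98 to -0.74 at low dose, -0.93 to -0.06 at middle dose, -1.28 to -0.47 at high dose and -1.28 to -0.66 in controls. Such a sum adds signals of different probes and mostly follows the brightest one, here miR-199a-3p with a mean level of -1.65. The leukocyte marker miR-223 rose at each dose, by 0.37, 0.48 and 0.39 (adjusted p of 0.0382, 0.0198 and 0.0482, limma), and miR-150 and miR-155 were detected on 0 arrays. The other two tested leukocyte markers did not pass at any dose: miR-142-3p was at 0.19, 0.20 and 0.12 and miR-142-5p at 0.26, 0.01 and -0.08. The summed level of the leukocyte list was 0.30 to 0.41 at low dose, 0.12 to 0.50 at middle dose, 0.03 to 0.54 at high dose and -0.15 to 0.30 in controls. It mostly follows miR-142-3p, with a mean level of -0.22, and less so miR-223, with -1.71. The endothelial marker miR-126-3p rose by 0.29 at low dose (adjusted p of 0.0268, limma). At middle and high dose it was at 0.16 and 0.08 (adjusted p of 0.191 and 0.518, limma). The other endothelial marker, miR-126-5p, was detected on 9 arrays and did not pass at any dose, at 0.05, -0.0013 and -0.0093. Of 5 bile duct and 2 tested erythroid markers 0 passed at any dose. What part these cells have in the miR-29 differences was not tested.

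Calls at middle and high dose depended on how arrays were scaled. With no scaling, all 3 members passed at high dose, at -0.87, -0.81 and -0.73 for miR-29a, miR-29b and miR-29c. The median over all 208 tested miRNAs was then -0.47. With the 75th percentile over all probes, miR-29a and miR-29b passed at middle dose, at -0.56 and -0.65, where that median was -0.15. Over the other settings up to 34 of all 208 miRNAs were called at middle dose and up to 69 at high dose. In the fits reported above 12 and 5 were called. The labelling spike-ins themselves had log2 medians of 10.96 in controls and 10.85, 10.40 and 10.07 at low, middle and high dose. With these spike-ins as the scale, none passed, and the high dose differences were -0.08, -0.02 and 0.06. The part of array signal in these differences was not tested.

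**Figure D4:**
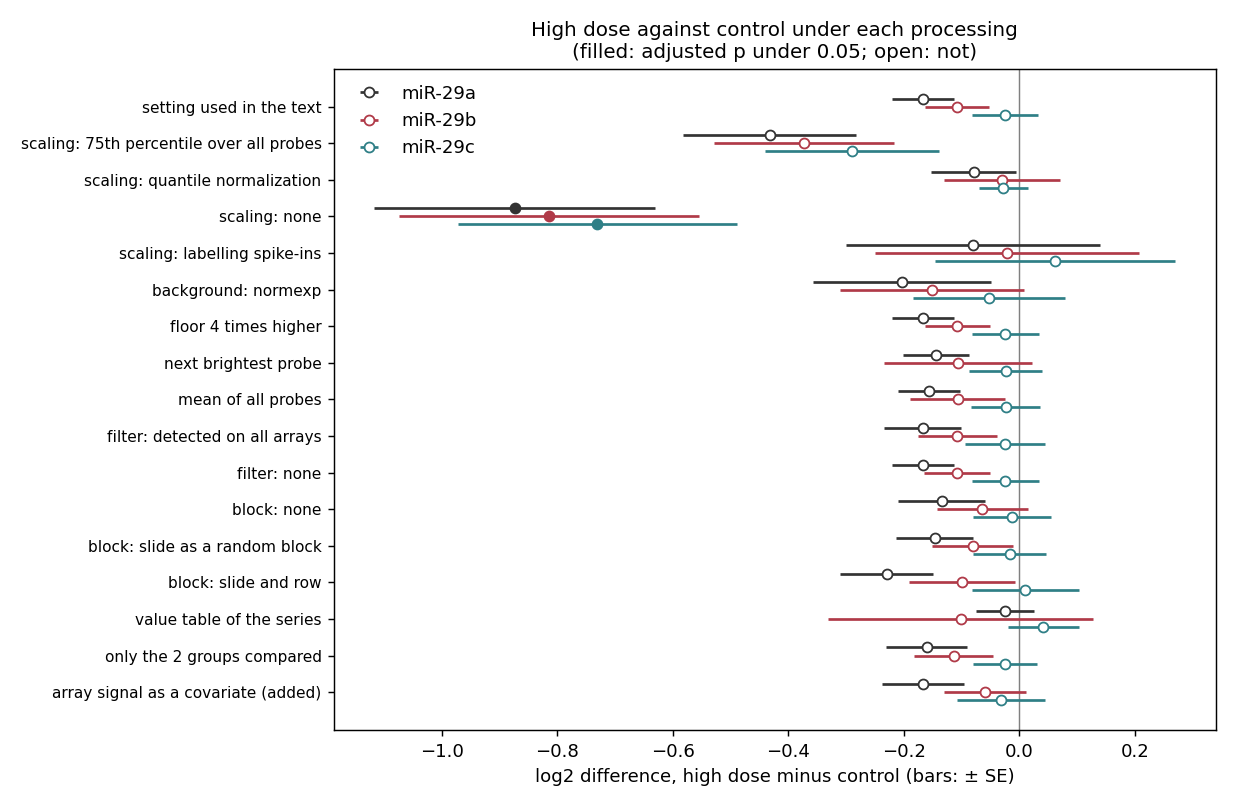
Log2 difference of high dose minus control (horizontal axis, bars ± SE) for the 3 members under each way of processing the arrays (vertical axis), with filled points where the adjusted p is under 0.05. Only the setting without scaling has filled points, at -0.87, -0.81 and -0.73.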

How the data were processed

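The deposited spot intensities had been background-corrected by the scanner software (Agilent Feature Extraction, version 10.7.3.1), per the file headers. The value table of the series holds log2 values as the authors deposited it, with a normalization not stated in its header or labels. Control spots were removed, which left 13920 of 14635 spots per array, then spots marked as outliers, and the rest were averaged into 1937 probes, and the 75th percentile of 220 probes detected on all arrays set the scale of each array. Values under -4.79 (log2) were raised to it, and the brightest probe stood for a miRNA. miRNAs detected on at least 4 arrays were tested with limma 3.58.1 in R 4.3.3 with the slide as a fixed block, two-sided, with Benjamini-Hochberg adjustment within each comparison. There were 0 saturated spots. The fits were tested on simulated data with added high dose changes larger than any difference of the members. That test does not show whether differences as small as theirs would be found. No 2 arrays were identical. p-values measure the spread between mice. The members and lists were chosen with earlier results of these data known. Named miRNAs were the members, their passenger strands, the 5 miRNAs outside the family most correlated with each, and miR-34a. List members were named if they passed or were among the 4 brightest. miR-10a and miR-24 were named for their SE. The array number limits the precision. The array names were matched to RefSeq by name. Alternatives changed the scaling, background, floor, filter, probe, block and livers used.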

Additional observations from a re-analysis of the deposited data

How the results depend on the processing

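No paired analysis was possible because the replicate numbers are unique to each array and are shared by no groups. Of the member values recomputed under the other settings, 285 kept their direction and their side of the threshold, 37 turned in direction and 11 passed. With 1 liver left out at a time, 386 kept both, 10 turned and 3 passed, and the 3 are the miR-29a trend given above. Values are log2 differences, and the cause of each change was not tested.

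With the 75th percentile over all probes, miR-29a and miR-29b gave -0.051 and -0.030 at low dose and -0.56 and -0.65 at middle dose, where both passed, and miR-29c gave -0.49 at middle dose. High against middle dose was then 0.12 for miR-29a and 0.20 for miR-29c. Middle against low dose passed at -0.50, -0.62 and -0.56 for miR-29a, miR-29b and miR-29c, where the median over all 208 miRNAs was -0.27. For that comparison 0 to 37 of all 208 miRNAs were called over the other settings. With no scaling, the 3 members gave -0.15, -0.13 and -0.034 at low dose and passed at -0.87, -0.81 and -0.73 at high dose. Their trends of -0.0363, -0.0342 and -0.0317 per mg/kg/day also passed, where the median trend over all 208 miRNAs was -0.0203. miR-29c was then -0.57 at middle dose and miR-29b was -0.080 in high against middle dose. With labelling spike-ins, miR-29a and miR-29b were -0.029 and -0.0082 at low dose, miR-29c was -0.16 at middle and 0.062 at high dose with a trend of 0.00103, and high against middle dose was 0.15 for miR-29a and 0.22 for miR-29c. With quantile normalization miR-29a was 0.0032 at middle dose.

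With normexp background correction, miR-29a was -0.0019 at low dose, miR-29c was -0.17 at middle dose, and high against middle dose was 0.12 for both. miR-29c at middle dose was -0.013 with the dimmer probe, -0.0046 with the mean of probes and -0.0024 with array signal as a covariate, which was added after seeing the data. With slide and row as blocks miR-29c was 0.011 at high dose, with a trend of 0.000661. In the value table, miR-29a and miR-29b were -0.0080 and -0.022 at low dose, miR-29b was 0.17 at middle dose, and miR-29c was -0.0074 at middle and 0.042 at high dose with a trend of 0.000615. There miR-29b was 0.20 in middle against low dose and -0.28 in high against middle dose, where miR-29a and miR-29c were 0.019 and 0.049.

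Leaving out each liver in turn gave -0.013 to 0.050 for miR-29a at low dose, -0.039 to 0.052 for miR-29c at middle dose, -0.080 to 0.0046 for miR-29c in high against middle dose, and -0.00904 to -0.00691 for the miR-29a trend. The miR-29a difference at high dose was -0.21 to -0.14 without 1 liver, and -0.87 to -0.024 over the other settings. The median difference over all 208 miRNAs was -0.24 at middle and -0.47 at high dose without scaling, and -0.15 at middle dose with all probes, so miR-29a lay 0.40 below that median at high dose without scaling. The number of all miRNAs called moved from 9, 12, 5 and 2 (low, middle and high dose, trend) to 0 to 12, 1 to 34, 1 to 69 and 0 to 104 over the other settings. Without 1 liver it was 0 to 13, 2 to 36, 1 to 23 and 2 to 17, with 36 and 23 without control replicate 1. The trend cannot be fitted with only the 2 groups compared.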

Other observations

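In the value table of the series, miR-29b on middle dose replicate 6 stood at 9.97 (log2), and the 18 other arrays lay between 8.39 and 8.86. In the scanner values the same array had a miR-29b level of 2.16, inside the range of the other arrays. Without that array, which was left out after seeing its value, the value table gave -0.15 ± 0.07 (SE) for miR-29b at middle dose against control (limma, adjusted p of 0.252), and with it 0.17. The other two members had no such array there, with ranges of 9.32 to 9.57 for miR-29a and 8.81 to 9.17 for miR-29c.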
